A study of Mus musculus with 25 samples.

Results

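Hepatocytes of C57BL/6 mice after 3 weeks on a NASH-inducing diet were compared with hepatocytes after 1 week on it, to see how stable the early transcriptional response to the diet was. The 8 libraries were chosen by their labels alone, 4 of week 1 and 4 of week 3, out of 25 in the series, and no measured value entered the choice. NASH, nonalcoholic steatohepatitis, is fatty liver with inflammation and cell injury. The whole series held 5 libraries of normal diet and 4, 3, 4, 3, 3 and 3 libraries of weeks 1 to 6 of diet. Each library came from liver cells freed by collagenase perfusion, enriched at low speed and sorted, with RNA read from its polyadenylated end by 3' tag sequencing (QuantSeq). All groups carried the same strain and no genetic change was named. The sources used here do not give the animals' age or sex, the composition of the diet or the markers of the sort. Nothing in the labels ties a library to its own animal, so every p-value refers to spread among libraries, which may be partly technical.

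Hepatocytes hold most of the liver's lipid and sterol metabolism. When cholesterol reaches the endoplasmic reticulum, the SREBP2 transcription factor stays bound there, and the genes of cholesterol synthesis and lipoprotein uptake that it drives are transcribed less. Oxysterols meanwhile activate LXR, which drives sterol export through ABCG5 and ABCG8. Fatty acid synthesis follows SREBP1c and carbohydrate supply, and many liver enzymes are zoned along the lobule, near the portal vein (periportal) or near the central vein (pericentral).

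The promoters of 3 sterol genes are shown because sterol synthesis genes are among the most lowered early response genes described below. Each stretch is the 250 bases before the start of transcription in RefSeq (build GRCm38.p6), read 5′ to 3′ on the gene's own strand. Capitals mark matches on either strand to CCAAT, a motif bound by NF-Y, which works beside SREBP2, and to TCACNCCAC, a form of the sterol regulatory element; CCAAT on the other strand reads ATTGG, and the 2 motifs shared no base in these stretches. Hmgcs1, which makes HMG-CoA, lies at chr13:119690101-119690350 on the plus strand. Mvd, which makes isopentenyl diphosphate, lies at chr8:122443423-122443672 on the minus strand. Nsdhl, a demethylating step late in the pathway, lies at chrX:72918271-72918520 on the plus strand.
Hmgcs1: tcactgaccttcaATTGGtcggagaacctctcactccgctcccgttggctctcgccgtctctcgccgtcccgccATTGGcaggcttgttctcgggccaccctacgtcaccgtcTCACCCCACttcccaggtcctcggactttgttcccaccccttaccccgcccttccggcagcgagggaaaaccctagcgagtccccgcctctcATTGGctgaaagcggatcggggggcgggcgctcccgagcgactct
Mvd: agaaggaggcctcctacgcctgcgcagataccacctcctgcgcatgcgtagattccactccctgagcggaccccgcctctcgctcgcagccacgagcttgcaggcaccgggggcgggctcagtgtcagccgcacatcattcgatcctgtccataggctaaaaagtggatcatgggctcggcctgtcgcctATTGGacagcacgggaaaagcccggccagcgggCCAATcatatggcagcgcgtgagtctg
Nsdhl: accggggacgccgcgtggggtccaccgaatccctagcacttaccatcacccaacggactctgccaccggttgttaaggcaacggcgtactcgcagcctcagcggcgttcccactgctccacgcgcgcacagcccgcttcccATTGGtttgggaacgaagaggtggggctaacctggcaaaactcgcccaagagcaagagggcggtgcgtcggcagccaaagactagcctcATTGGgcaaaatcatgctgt
Hmgcs1 had 3 CCAAT matches and 1 sterol element, and Mvd and Nsdhl had 2 CCAAT matches each. Of the 21 genes of the cholesterol synthesis list, 16 were in the promoter table, and 15 of these (93.8%) held CCAAT against 37.5% of all 27025 genes in it. TCACNCCAC stood in 1 of the 16 (6.25%) and in 1.22% of all genes. These are matches of letters, not measured binding.

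The 8 libraries held 5715248 to 8139997 counts, against 5281143 to 10015751 over all 25. The mitochondrial genome gave 22.5%, 21.9%, 19.9% and 20.8% of the counts in the week 1 libraries and 22.9%, 23.1%, 23.2% and 23.2% at week 3, so this share was higher in every week 3 library, within the 19.3% to 27.4% of normal diet. Its part in the results below was not tested. Values below are CPM, counts scaled to a common library total, after TMM scaling, which evens out the makeup of the libraries. The hepatocyte mark Alb, albumin, read 38610 to 58040 CPM, lowest in library 1 of week 3. Summed over each list, markers of other liver cells overlapped between the weeks. The 12 Kupffer cell markers summed to 343 to 919 CPM at week 1 and 545 to 880 at week 3, the 15 sinusoidal endothelial markers to 402 to 733 and 594 to 796, and the 16 stellate cell markers to 120 to 340 and 94.9 to 384, with no marker of the 3 lists at 0 in all 8. The 16 markers of monocytes, macrophages and dendritic cells summed to 148 to 481 CPM and 198 to 698, also with none at 0 in all 8. Of the 15 of these tested, 14 read higher at week 3, with a median log2 change of 0.50, 0 called and 0 at an unadjusted p under 0.05, and their part in the results below was not tested. Few neutrophil markers were abundant enough to test: 3 of 8, with a median of 0.65 (0 called) and summed levels of 2.24 to 3.98 and 1.86 to 5.62 CPM, with Ly6g at 0 in all 8. Libraries 3 and 4 of week 1 held transcripts of the exocrine pancreas, which hepatocytes do not make: 10 pancreatic markers summed to 211 and 147 CPM there and to 0.373 to 4.92 CPM in the other 6 libraries. Library 1 of week 3 held the most acute phase transcripts. Where leaving out these or other libraries moved a list's median by over 1.5 times, that value follows the list. So does the larger count given at an unadjusted p under 0.05, where it moved as much. In pooled cells, fewer cells of a type and less RNA per cell cannot be told apart.

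No gene passed the test of a difference between week 3 and week 1. Of 11869 genes tested, 0 (0%) passed an adjusted p of 0.05 in edgeR's quasi-likelihood test, and the smallest adjusted p was 0.562. At an unadjusted p under 0.05 there were 740 genes (6.23%), 290 higher (2.44%) and 450 lower (3.79%) at week 3. limma voom called 0 genes with 695 at an unadjusted p under 0.05, and DESeq2 called 1, Cfd, with 744. The count of 740 was 370 without the week 1 libraries 3 and 4. Since the normal diet libraries cancel, this comparison is also the test of whether the effects of 3 weeks and 1 week of diet differed from each other.

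The intervals show how much difference the data leave room for. The 95% interval of the change lay within 2-fold in both directions for 8532 genes (71.9%) and within 1.5-fold for 5274 (44.4%). Among the 5124 genes at a mean of 10 to 100 CPM, 93.3% lay within 2-fold, and among the 1149 genes at 100 CPM or more, 93.9%. Among the 5596 genes under 10 CPM only 47.8% did. Their median distance from the estimate to either end was 0.741 on the log2 scale. At that depth the interval often left room for a 2-fold difference. The intervals are not adjusted for the number of genes. Estimates over 2-fold also stayed uncalled for 22 genes at 10 to 100 CPM and 8 genes at 100 CPM or more. The median size of the change, whatever its sign, was 0.17 on the log2 scale, and the median change over all genes was 0.00. The libraries of one week never overlapped those of the other for 189 genes higher at week 3 (1.59%) and 267 lower (2.25%).

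Libraries of different weeks and libraries of the same week lay at similar distances. The root mean square log2 difference between 2 libraries was 0.547 to 0.7 within week 1, 0.506 to 0.601 within week 3 and 0.513 to 0.745 between them. No 2 libraries of a week were copies of each other: a chi-square of their counts was 7.3 to 31.7 times its degrees of freedom. The neighbouring steps also gave 0 genes (0%) in edgeR, both for week 2 against week 1 (575 at an unadjusted p under 0.05) and for week 3 against week 2 (405). Week 6 against week 1, in the same fit, gave 1956 genes (16.5%), 1363 higher and 593 lower. The fit was thus able to call differences between 2 weeks of diet. The mean log2 CPM of Kupffer, endothelial and stellate cell markers was 5.36 to 5.64 at week 6 and 3.3 to 4.37 at week 1. The part of such cells in the 1956 genes was not tested.

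**Figure D1:**
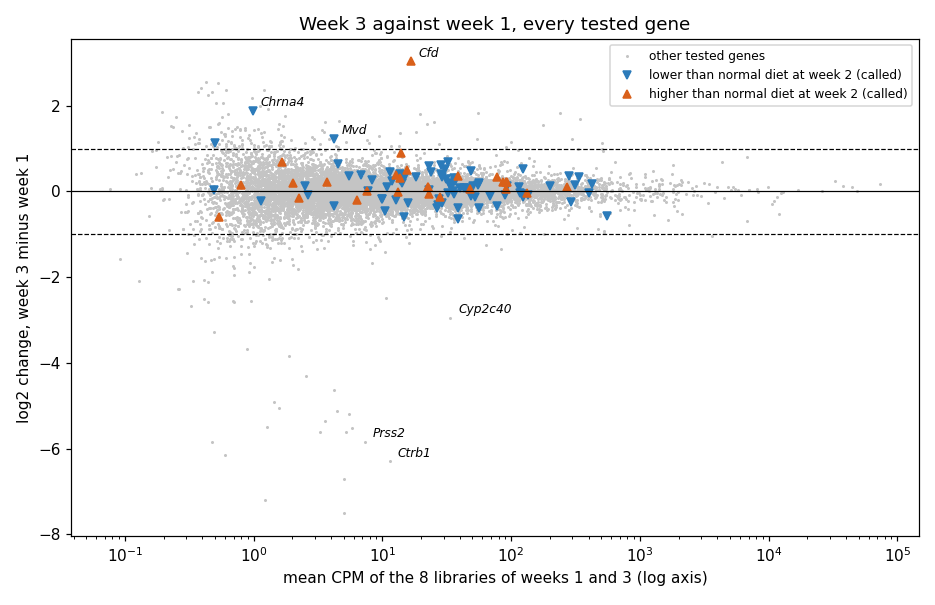
Each point is a tested gene, with its mean CPM over the 8 libraries of weeks 1 and 3 on a log axis and its log2 change, week 3 minus week 1, on the vertical axis; dashed lines stand at 2-fold, and triangles mark the genes called at week 2 against normal diet. The triangles scatter around 0, with Cfd highest at 3.03, and the points far below 0 at low CPM include pancreatic transcripts such as Ctrb1.

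Early response genes were the 105 genes called at week 2 against normal diet (0.885% of those tested), 27 higher and 78 lower. The means behind these calls came from libraries outside the comparison. The spread came from the fit of all 25 libraries, weeks 1 and 3 included, and both comparisons share it. The choice was therefore not fully independent of the p-values counted below. Library 3 of week 2 held 2172 counts of the pancreatic markers, the most of all 25 libraries, and no fit left out a week 2 library. None of the 105 was called between week 3 and week 1 in edgeR or in limma voom, and DESeq2 called 1, Cfd. At an unadjusted p under 0.05 stood 17 of them (16.2%, beside 6.23% of all genes), and this count was 10 without library 3 of week 3. Of the 17, 10 lay nearer to normal diet at week 3 than at week 1 and 7 lay further from it. Signed by their direction at week 2, the 105 had a median change of -0.01 on the log2 scale, with 50 further from normal and 55 nearer. Without library 3 or library 4 of week 3 that median was above 0, at 0.0041 and 0.0087. For 81 of them (77.1%) the 95% interval lay within 2-fold.

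By direction at week 2, the lower genes lay nearer to normal at week 3 more often than further, and the higher genes the reverse; the difference between the 2 sets was not tested. Of the 78 lower genes, 48 lay nearer to normal at week 3, with a median log2 change of 0.10. Of the 27 higher genes, 20 lay further from normal, with a median of 0.15. So 48 of 78 and 20 of 27 read higher at week 3, beside 5962 of all 11869 genes. Against normal diet, in comparisons that share the normal diet libraries, the median of the 78 was -1.04 at week 1, -1.09 at week 2 and -0.99 at week 3, and the median of the 27 was 0.94, 1.4 and 1.16.

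All genes named from here on had an adjusted p of 0.686 or more between week 3 and week 1 in edgeR. Their differences are given as estimates on the log2 scale with 95% intervals, and the normal diet level stands beside them.

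Sterol synthesis genes were among the most lowered early response genes and read far below normal diet at both weeks. Sqle, squalene epoxidase, read 4.16, 3.76, 3.98 and 2.14 CPM in the 4 week 1 libraries and 3.21, 6.33, 8.30 and 4.35 CPM in those of week 3, against 63.3 ± 7.01 (SD, n = 5) on normal diet. The weeks overlapped, and both lay far below normal diet. The log2 difference was 0.64 (0.10 to 1.18). Mvd read 2.88, 2.31, 1.79 and 3.06 CPM at week 1 and 4.01, 3.34, 10.3 and 5.84 at week 3, against 21.0 ± 4.40 on normal diet. Its weeks did not overlap, and library 3 of week 3 was the highest. The difference was 1.23 (0.53 to 1.94), a 2.35-fold estimate.

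Fdps, which makes farnesyl diphosphate, read 27.0, 15.9, 25.4 and 21.2 CPM at week 1 and 26.0, 31.3, 43.2 and 36.5 at week 3, against 154 ± 46.8 on normal diet, with overlap and a difference of 0.61 (0.08 to 1.14). Msmo1, a methylsterol oxidase, averaged 32.0 ± 4.51 and 39.7 ± 12 (SD, n = 4 each), with a difference of 0.31 (-0.28 to 0.90). Nsdhl averaged 10.8 ± 2.17 and 12.9 ± 2.99, with a difference of 0.26 (-0.30 to 0.81). For Hmgcs1 the weeks were nearly level, at 110 ± 18.6 and 119 ± 42.5 CPM, and the interval of the difference ran from -0.54 to 0.74. Sc5d, a late desaturase, averaged 246 ± 9.72 and 316 ± 87.5, with a difference of 0.36 (-0.04 to 0.77).

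Across the 21 sterol synthesis genes tested, 18 read higher at week 3 and 3 lower, with 0 called and a median of 0.26 beside 0.00 over all genes. Of the 21, 3 were higher at an unadjusted p under 0.05 (Mvd, Sqle and Fdps) and none lower. This count was 6 without library 1 of week 3, and 1 without its library 3 or without library 4 of week 1. Without library 3 of week 3 the median was 0.17, with 14 higher and 7 lower. The mean log2 CPM of the list was 3.95, 4.18, 4.58 and 4.38 in the week 3 libraries and 4.01, 3.90, 4.11 and 4.13 at week 1, so library 1 of week 3 lay within week 1 and the other 3 above it.

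**Figure D2:**
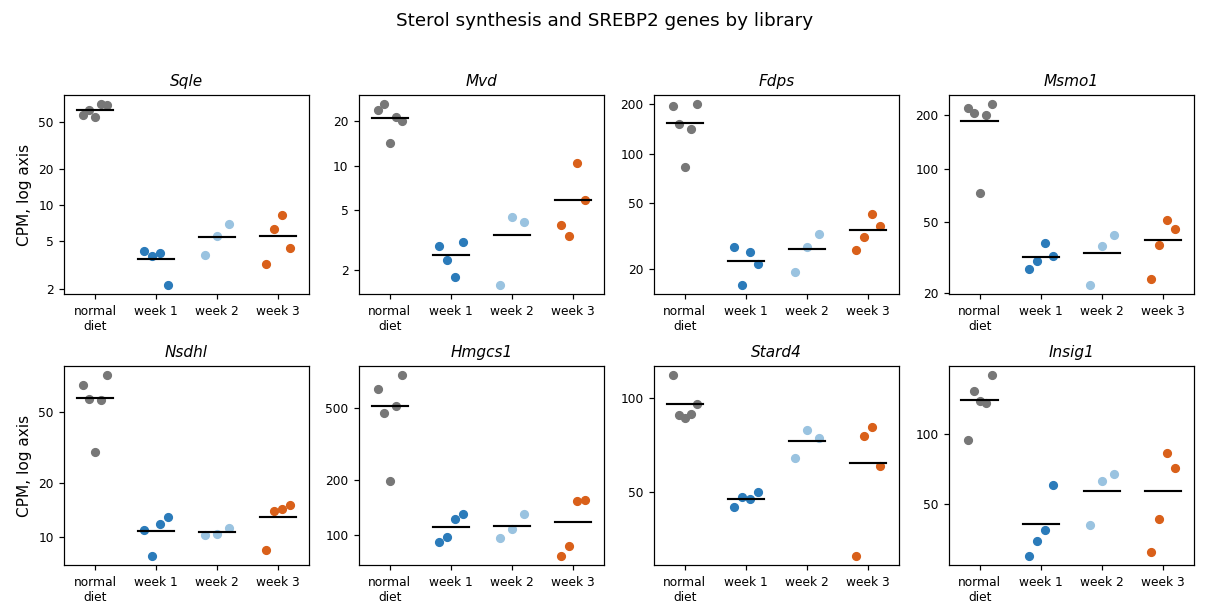
CPM on a log axis in each library of normal diet and weeks 1, 2 and 3 for 6 sterol synthesis genes, for Stard4 and for Insig1; points are libraries and bars are group means. All week 1 and week 3 points of Sqle, Mvd, Fdps, Msmo1, Nsdhl and Hmgcs1 lie below the lowest normal diet point.

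Genes of sterol control and lipoprotein uptake also read higher at week 3 in most cases. Insig1, which holds SREBPs in the endoplasmic reticulum, averaged 40.8 ± 13.5 and 56.9 ± 24.0 CPM, with a difference of 0.48 (-0.09 to 1.05). Stard4, a sterol carrier, read 44.8 to 50.0 CPM in the week 1 libraries, and at week 3 31.1 in library 1 and 60.8 to 81.0 in the others, with a difference of 0.38 (0.00 to 0.77). Of the 13 genes of this list tested, 10 read higher at week 3, with a median of 0.17, 0 called, and 2 higher at an unadjusted p under 0.05. That count was 5 without library 1 of week 3, 0 without its library 3, and 1 without its library 4 or without library 1, 2 or 3 of week 1. It was 4 without the 2 week 1 libraries with pancreatic transcripts. The median of the list was 0.29 without library 2 of week 1 and 0.27 without library 4 of week 3.

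Sterol export genes were close to level. Abcg5 and Abcg8, the 2 subunits of the sterol exporter, were called higher at week 2 than on normal diet. Abcg8 read 67.5, 110, 78.3 and 89.6 CPM at week 1 and 58.8, 128, 124 and 93.2 at week 3, against 38.1 ± 17.3 on normal diet, and the range of week 3 enclosed that of week 1. The difference was 0.22 (-0.31 to 0.76), and for Abcg5 it was 0.22 (-0.52 to 0.96). Nr1h3, which encodes LXR alpha, averaged 73.1 ± 3.69 and 80.4 ± 3.10 CPM, and Abca1, a cholesterol exporter, 103 ± 18.7 and 94.2 ± 4.47. The 13 genes of the LXR and efflux list had a median of 0.02, with none at an unadjusted p under 0.05 and 12 of 13 intervals within 2-fold. With library size scaling that median was -0.00069, and with 1 library left out it ran from -0.06 (library 2 of week 1) to 0.15 (library 3 of week 1). Without the 2 week 1 libraries with pancreatic transcripts it was 0.17, with 1 gene higher at an unadjusted p under 0.05.

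Cfd had the largest estimate among the 105 early response genes. It encodes complement factor D, or adipsin, a serine protease best known from fat cells. It read 0.219 to 1.38 CPM on normal diet, then 3.68, 4.20, 2.61 and 3.98 CPM at week 1, and 4.81, 49.4, 37.5 and 27.3 CPM at week 3. The weeks did not overlap, but library 1 of week 3 lay just above week 1 while the other 3 lay far above it. The log2 difference was 3.03 (1.63 to 4.44), an 8.19-fold estimate, with an adjusted p of 0.686 in edgeR, 0.827 in limma voom and 0.0251 in DESeq2. Without library 1 of week 3 the difference was 3.39 and the edgeR adjusted p 0.128. Among fat cell markers, the defining Adipoq, Retn and Lep were at 0 in all 8 libraries. The summed fat cell list read 1810 to 2470 CPM at week 1 and 1570 to 2220 at week 3, and Cfd was a small part of it. Of 6 fat cell markers tested, 2 read higher (Cfd and Cidec, both at an unadjusted p under 0.05) and 4 lower. Their mean log2 CPM was 3.91, 3.82, 3.88 and 3.65 at week 1 and 3.83, 4.73, 4.29 and 4.67 at week 3. The cells from which Cfd came were not tested.

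Among the other genes raised by week 2, Wfdc2, a secreted protease inhibitor, read 11.2, 7.52, 12.6 and 7.95 CPM at week 1 and 12.2, 14.6, 23.1 and 23.1 at week 3. Library 1 of week 3 lay inside the week 1 range, and the difference was 0.89 (0.25 to 1.54). Adam11, a membrane protein of the disintegrin family, averaged 11.1 ± 1.29 and 14.7 ± 3.13 CPM, against 2.86 ± 1.47 on normal diet, and its difference was 0.39 (-0.12 to 0.91). Tmem86a, a lysoplasmalogenase, differed by 0.11 (-0.51 to 0.73), and Slc17a8, a vesicular glutamate transporter, by 0.31 (-0.15 to 0.77). Apoa4, an apolipoprotein of secreted lipid particles, averaged 34.1 ± 6.19 and 43.8 ± 20.4 CPM, with an interval from -0.48 to 1.21 that reaches past 2-fold. Fabp2, a fatty acid binding protein, was level at 135 ± 20.4 and 131 ± 32.8 CPM.

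Among the other genes lowered by week 2, Cyp3a11, a drug-metabolising cytochrome P450, read 466, 562, 1025 and 611 CPM at week 1 and 248, 386, 409 and 742 at week 3, against 2344 ± 648 on normal diet. The weeks overlapped, and the difference of -0.58 (-1.39 to 0.23) pointed further from normal. Chrna4, a nicotinic receptor subunit, was at most 0.825 CPM at week 1 and read 0, 1.05, 4.24 and 0.994 at week 3, against 10.3 ± 4.68, too few counts for a narrow interval (-0.41 to 4.16). Slc13a2, a dicarboxylate transporter, averaged 2.41 ± 0.441 and 2.61 ± 1.46 CPM. Usf1, a transcription factor of glucose and lipid genes, read 21.8, 20.6, 16.2 and 14.4 CPM at week 1 and 25.8, 27.4, 32.2 and 25 at week 3, against 47.4 ± 6.13. Its weeks did not overlap, and all 8 libraries lay below the lowest normal diet library at 39.0. Aldh1a7, an aldehyde dehydrogenase, also had no overlap, at 89.4 to 108 and 111 to 174 CPM, with a difference of 0.51 (0.23 to 0.80). It has a close relative, Aldh1a1, with which reads could be shared.

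**Figure D3:**
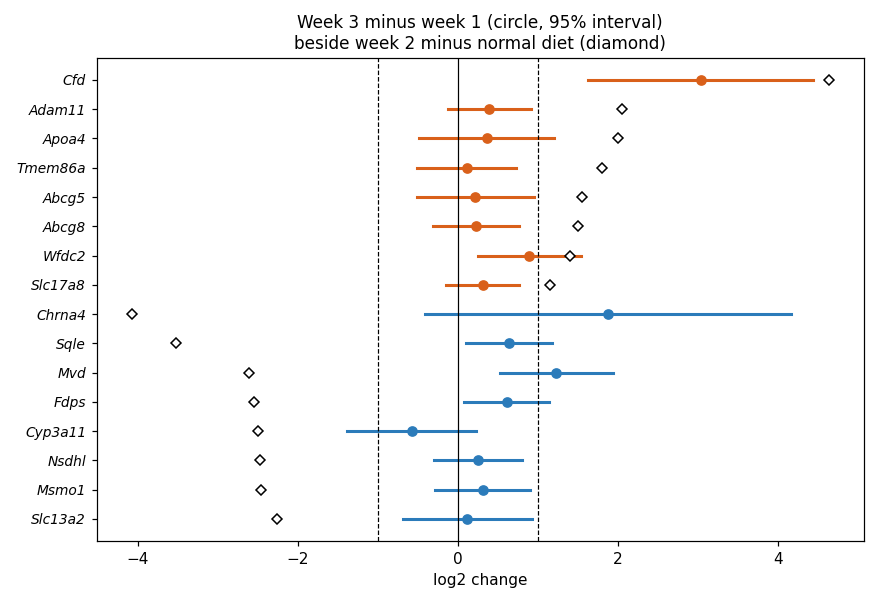
For the 8 largest rises and 8 largest falls at week 2 against normal diet among genes averaging 10 CPM or more in the higher of those 2 groups, circles with bars give the log2 change of week 3 minus week 1 with its 95% interval and diamonds give week 2 minus normal diet; dashed lines stand at 2-fold. Each circle lies nearer to 0 than its diamond. The genes were chosen by their large week 2 changes, and the part of that choice was not tested. The intervals of Sqle, Mvd, Fdps, Wfdc2 and Cfd exclude 0 before any adjustment.

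Among the pathway lists, fatty acid synthesis had the highest median. Of 21 genes, 19 read higher at week 3, with a median of 0.44, 0 called, and 5 higher at an unadjusted p under 0.05. Thrsp, a carbohydrate-responsive lipogenic protein, read 151, 110, 193 and 194 CPM at week 1 and 180, 571, 904 and 430 at week 3, against 297 to 2056 on normal diet. Library 1 of week 3 again lay inside week 1, and the difference was 1.69 (0.49 to 2.88). Scd1, the stearoyl-CoA desaturase, averaged 4943 ± 834 and 8631 ± 3388 CPM, with 0.80 (0.06 to 1.55). Me1, malic enzyme, differed by 0.63 (0.05 to 1.21) and Fads2, a desaturase of polyunsaturated fatty acids, by 0.65 (0.13 to 1.16). Acss2, acetyl-CoA synthetase and an early response gene, did not follow them, at 48.6 ± 11 and 53.5 ± 16.1 CPM. The count of 5 was 10 without library 1 of week 3 and 1 without its library 3, and it was 2 without library 2 of week 1, and 3 without library 3 of week 1 or library 4 of week 3. The median was 0.66 without library 1 of week 3, 0.26 without its library 3 and 0.72 without the 2 week 1 libraries with pancreatic transcripts. The mean log2 CPM of the list was 5.75, 6.31, 6.99 and 6.53 in the week 3 libraries and 5.86, 5.6, 6.12 and 6.15 at week 1.

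Genes of lipid uptake and storage were mixed. Of 20 tested, 12 read higher and 8 lower, with a median of 0.13 and 0 called. The median was 0.21 without library 1 and 0.08 without library 3 of week 1, and 0.22 without library 2 of week 3. Cd36, a fatty acid transporter, read 17.4, 15.3, 17.2 and 11.6 CPM at week 1 and 20.8, 25.7, 22.9 and 19.9 at week 3, without overlap, with a difference of 0.53 (0.07 to 0.99). Cidec, a lipid droplet protein, was near the limit of detection at 0.461 ± 0.444 and 1.80 ± 1.09 CPM. Lpl, lipoprotein lipase, averaged 102 ± 34.4 and 73.6 ± 8.24 CPM.

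Among the pathway lists, pericentral genes had the lowest median. Of 20 tested, 19 were lower and 1 higher, with a median of -0.63, 0 called, and 6 lower at an unadjusted p under 0.05. Glul, glutamine synthetase, the classic enzyme of the cells around the central vein, read 1049, 809, 1294 and 1042 CPM at week 1 and 610, 645, 399 and 775 at week 3. All 4 week 3 libraries lay below all 4 of week 1 and near normal diet at 477 ± 165, and the difference was -0.79 (-1.37 to -0.21). Cyp1a2, a P450 of the same zone, read 591, 734, 588 and 856 CPM at week 1 and 422, 459, 205 and 383 at week 3, without overlap, with -0.92 (-1.77 to -0.06). Gulo, the last enzyme of vitamin C synthesis, averaged 612 ± 170 and 334 ± 117, and Znrf3, which limits WNT signalling, 8.81 ± 0.955 and 5.32 ± 1.41. Cyp2c50 (422 ± 126 and 232 ± 55.9 CPM) and Lect2, a secreted hepatocyte factor (102 ± 15.8 and 68.0 ± 15.0), read the same way.

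Against normal diet, in comparisons that share its libraries, the pericentral median was 0.90 at week 1 and 0.19 at week 3. The mean log2 CPM of the list was 6.13, 6.36, 6.43 and 6.56 in the week 1 libraries and 5.73, 5.98, 5.18 and 6.16 at week 3, with library 3 of week 3 the lowest and library 4 just inside the range of week 1. The median lay between -0.745 and -0.442 in all 19 other settings, with 0 called in each. The count of 6 at an unadjusted p under 0.05 was 1 without the 2 week 1 libraries with pancreatic transcripts, 3 without library 3 and 2 without library 4 of week 1, and 2 without library 3 of week 3. Fitted on the 8 libraries alone the count was 12. The part of those libraries in the pericentral difference was not tested beyond these values.

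Periportal, urea cycle and one-carbon genes leaned the other way by less. Of 23 periportal genes, 14 read higher and 9 lower, with a median of 0.15, 0 called, and 6 higher and 1 lower at an unadjusted p under 0.05. That count of 6 was 2 without library 3 of week 3, and 3 without its library 2 or without library 4 of week 1. It was also 3 without the 2 week 1 libraries with pancreatic transcripts. The median was 0.07 without library 3 of week 3, 0.25 without its library 1 and 0.23 without library 3 of week 1. Of 26 urea cycle and amino acid genes, 16 read higher, with a median of 0.09, 0 called, and 5 higher at an unadjusted p under 0.05, a count that was 1 without library 3 of week 3, and 2 and 3 without library 3 and library 4 of week 1. Their median was 0.04 without library 3 of week 3, 0.14 without its library 2 and 0.05 without library 3 of week 1. Without the 2 week 1 libraries with pancreatic transcripts the count of 5 was 2. Asl, argininosuccinate lyase of the urea cycle, read 163, 167, 134 and 161 CPM at week 1 and 208, 234, 296 and 206 at week 3, without overlap, with a difference of 0.60 (0.23 to 0.97). Hsd17b13, a lipid droplet enzyme, averaged 333 ± 39.1 and 433 ± 63.4, and Etnppl, a phospholyase, 88.9 ± 12.7 and 133 ± 51.6. The neighbouring urea cycle enzyme Ass1 showed a smaller difference, 0.26 (-0.32 to 0.83). Aldh1b1, a mitochondrial aldehyde dehydrogenase, averaged 102 ± 31.3 and 151 ± 31.6 CPM.

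Mat1a, which makes S-adenosylmethionine in the adult liver, read 1269, 1526, 1302 and 1614 CPM at week 1 and 1974, 1925, 2491 and 2372 at week 3, against 2753 ± 673 on normal diet. The weeks did not overlap, and the difference was 0.62 (0.28 to 0.96), a 1.53-fold estimate. Sardh, sarcosine dehydrogenase, averaged 212 ± 21.6 and 256 ± 21.1. Gnmt, which spends S-adenosylmethionine, differed by 0.18 (-0.28 to 0.64) and Cth, which makes cysteine, by -0.14 (-0.69 to 0.41). Of the 22 genes of the methionine and one-carbon list, 16 read higher, with a median of 0.14, 0 called, and 2 higher at an unadjusted p under 0.05, which was 1 without library 1 or 3 of week 1 or library 2 or 3 of week 3. The median was 0.06 without library 1 and 0.09 without library 3 of week 1, and 0.07 without library 4 of week 3.

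**Figure D4:**
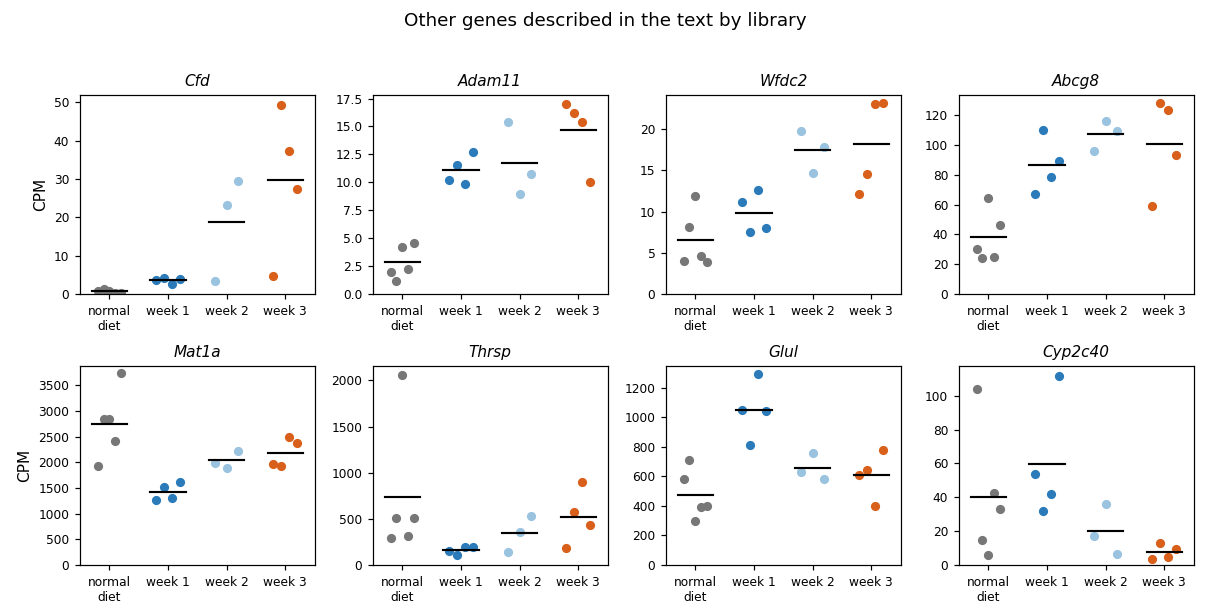
CPM in each library of normal diet and weeks 1, 2 and 3 for Cfd, Adam11, Wfdc2, Abcg8, Mat1a, Thrsp, Glul and Cyp2c40; points are libraries and bars are group means. Cfd, Mat1a, Glul and Cyp2c40 have no overlap between weeks 1 and 3, and the lowest Cfd and Thrsp points of week 3 are both library 1.

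Detoxifying enzymes were mixed. Of 25 xenobiotic genes tested, 10 read higher and 15 lower, with a median of -0.08, 0 called, and 2 lower at an unadjusted p under 0.05, which was 1 without library 2 or 4 of week 1 or library 3 of week 3. The median was -0.20 without library 2 and -0.14 without library 3 of week 3. Without the 2 week 1 libraries with pancreatic transcripts the count of 2 was 0. Cyp2c40, a P450 found more in female liver, read 53.9, 31.8, 41.9 and 112 CPM at week 1 and 3.52, 13.0, 4.75 and 9.69 at week 3, without overlap, with a difference of -2.94 (-4.44 to -1.45). Normal diet libraries ran from 5.77 to 104 CPM and so spanned both weeks. Its close relative Cyp2c69 read 18.2 ± 8.13 and 3.27 ± 2.79 CPM. The 2 may share reads, so the value of either is uncertain. Among glutathione transferases, Gsta2 averaged 8.68 ± 0.906 and 18.2 ± 9.49 CPM and Gsta4 25.1 ± 4.75 and 36.3 ± 9.26, with library 1 of week 3 inside the week 1 range for both. Ces2a, a carboxylesterase lowered by week 2, was level at 140 ± 11.9 and 132 ± 24.1. Cyp17a1, a steroid hydroxylase, read 1.16 to 3.36 and 4.33 to 9.94 CPM, without overlap.

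For the acute phase list, 1 library set the sign of the median. Of 24 genes, 20 read higher at week 3, with a median of 0.31, 0 called, and 5 higher at an unadjusted p under 0.05. Without library 1 of week 3 the median was -0.11, with 8 higher and 16 lower. Without its library 4 the median was 0.52, with 9 higher at an unadjusted p under 0.05. The count of 5 was 3 without library 1 of week 3, and 3 without the 2 week 1 libraries with pancreatic transcripts. Lcn2, a siderophore-binding protein, read 6.95 to 13.3 CPM at week 1 and 102, 18.3, 8.98 and 3.98 at week 3, and Orm3, an orosomucoid, read 22.3, 8.61, 8.30 and 3.23 at week 3, both highest in library 1. Hamp, which encodes the iron hormone hepcidin, was lowest, not highest, in that library among the 4 of week 3: it read 316, 382, 284 and 433 CPM at week 1 and 588, 702, 770 and 652 at week 3, without overlap, with a difference of 0.94 (0.38 to 1.49). Serpina3m, a serpin, also had no overlap, at 98.3 to 137 and 148 to 218 CPM, with 0.58 (0.28 to 0.89).

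The remaining genes with the smallest p-values were of varied function. Pcm1, a centriolar satellite protein, read 27.8 to 28.7 CPM in all 4 week 1 libraries and 34.6 to 39.9 at week 3. On the lower side, Metap1d, a mitochondrial aminopeptidase, averaged 12.5 ± 1.64 and 7.58 ± 0.855 CPM, Bcar1, an adhesion adaptor, 37.9 ± 1.78 and 28.4 ± 2.92, and Tbl1xr1, a corepressor subunit, 46.1 ± 2.75 and 34.1 ± 6.18. Atp13a3, a polyamine transporter, averaged 61.7 ± 3.87 and 48.4 ± 4.46, and Slc39a1, a zinc transporter, 56.7 ± 15.6 and 37.1 ± 7.41. Apart from Slc39a1 the weeks did not overlap for these 6 genes.

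A list of 32 early response genes known from earlier results of these data was not independent of the libraries compared. In it 11 genes were higher and 2 lower at an unadjusted p under 0.05, 0 were called, and the median was 0.26. Tsc22d1, a leucine zipper regulator, was its clearest lower member, at 103, 127, 153 and 236 CPM at week 1 and 76.4, 71.9, 72.9 and 93.0 at week 3, without overlap and with a difference of -0.98 (-1.63 to -0.33). Vnn1, a pantetheinase, averaged 15.7 ± 3.58 and 12.1 ± 2.47 CPM. The count of 11 was 5 without library 3 of week 3. The median was 0.13 without that library, 0.39 without library 1 of week 3, 0.17 without library 1 of week 1 and 0.44 without the 2 week 1 libraries with pancreatic transcripts.

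Ribosomal protein genes read lower in 25 of 30, with a median of -0.17, 0 called, and 7 lower at an unadjusted p under 0.05. This count was 0 without library 3 of week 1 and without the 2 week 1 libraries with pancreatic transcripts. It was 2 without library 2 of week 3, and 11 without library 1 or 2 of week 1 or library 4 of week 3. The median was -0.09 without library 3 of week 1, -0.105 without library 2 of week 3 and -0.07 without the 2 week 1 libraries with pancreatic transcripts. Of 24 male-biased liver genes, 21 read lower, with a median of -0.28, 0 called, and 2 lower at an unadjusted p under 0.05. Without library 1 of week 3 that median was -0.525, with 7 lower at an unadjusted p under 0.05, and without the 2 week 1 libraries with pancreatic transcripts it was -0.43, with 1. The count of 2 was 0 without library 3 of week 1 or library 2 or 3 of week 3. It was 1 without library 1 or 2 of week 1 or library 4 of week 3. Of 21 female-biased genes, 8 were abundant enough to test, 5 higher and 3 lower, with a median of 0.19, 0 called, and 2 in each direction at an unadjusted p under 0.05. With 1 library left out that median ran from 0.03 (library 2 of week 3) to 0.30 (library 1 of week 3). The higher count of 2 was 1 without library 2 or 3 of week 1 or library 4 of week 3. Without the 2 week 1 libraries with pancreatic transcripts it was 1, with a median of 0.09. Genes of glucose metabolism and insulin signalling read higher in 21 of 25, with a median of 0.23 and 1 at an unadjusted p under 0.05 (0 to 2 with 1 library left out: 0 without library 2 or 3 of week 1 or library 4 of week 3, 2 without library 1 or 2 of week 3); G6pc, which releases glucose from its phosphate, averaged 490 ± 131 and 790 ± 267 CPM. Lists of fatty acid oxidation (median -0.01), bile acid synthesis (-0.02), complement and coagulation (-0.02) and the respiratory chain (-0.04) had medians near 0. None of their genes was called. At an unadjusted p under 0.05, 3 of 20 bile acid genes were lower and 0 higher, beside 3.79% lower of all genes. For fatty acid oxidation 1 of 23 was lower and 0 higher, and for the respiratory chain 2 of 28 lay in each direction. Of 27 complement and coagulation genes 0 did. Left-out values were not computed for these 4 lists.

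**Figure D5:**
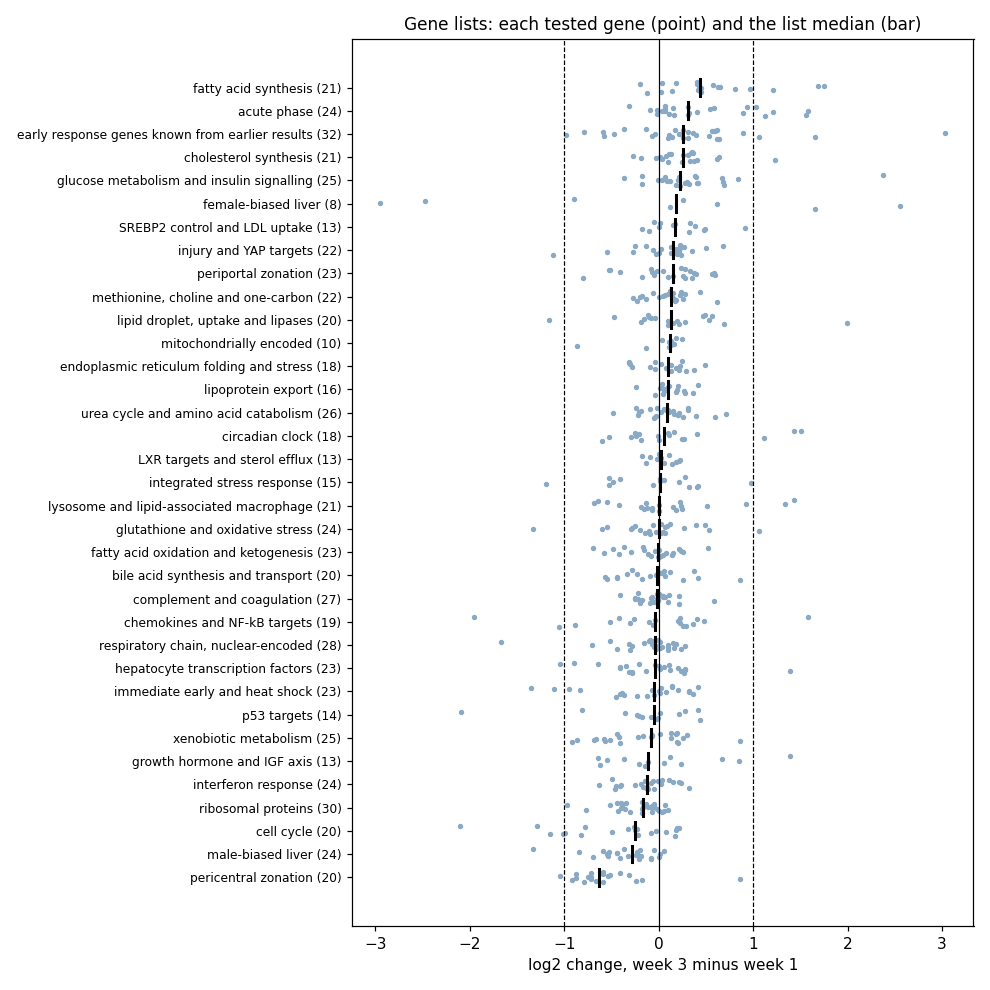
Each row is a pathway gene list, without the cell type marker lists, with its number of tested genes, each point is the log2 change of a gene, week 3 minus week 1, and each bar is the list median; dashed lines stand at 2-fold. Medians of these lists run from -0.63 for pericentral genes to 0.44 for fatty acid synthesis, and the acute phase median of 0.31 turns to -0.11 without library 1 of week 3.

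Many of the most negative estimates were of transcripts concentrated in the 2 week 1 libraries with pancreatic transcripts. Of 36 genes with a log2 change below -2, 21 had at least 90% of their week 1 CPM in libraries 3 and 4. This cut was chosen after seeing the values, and whether all 21 are pancreatic was not checked. Ctrb1, chymotrypsinogen, read 0.480, 0.289, 55.1 and 34.7 CPM at week 1 and at most 0.678 at week 3, and Prss2, a trypsinogen, 0.320, 0.145, 32.4 and 24.5 against at most 0.527. Cpb1 and Try4, 2 further pancreatic enzymes, had 0 counts in libraries 1 and 2 of week 1. All 8 pancreatic markers tested were lower at an unadjusted p under 0.05 in edgeR, none was in limma voom or without those 2 libraries, and none was called. Trypsinogen genes are close copies that may share reads.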

How the data were processed

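Hepatocyte RNA of 25 libraries was measured by 3' tag sequencing. The deposited table holds whole-number counts for 37085 gene symbols; per the submitters' processing notes the reads were handled with FastQC, cutadapt and STAR 2.7.1a on GRCm39, while the sources used here name neither the counting tool nor the annotation. A 3' tag count does not depend on transcript length but reads only the polyadenylated end. From the counts, 11869 genes passed edgeR's filterByExpr. They were fitted in 1 model of 7 groups with TMM scaling (R 4.3.3, edgeR 4.0.16, robust quasi-likelihood F-test), with Benjamini-Hochberg adjustment over all tested genes and a threshold of 0.05. Intervals are Wald intervals at 95%. Genes were named by rank: the smallest p in each direction, the largest early changes, and up to 4 per list by p; of these, 71 are described, and some others are not reported here. Alternatives used DESeq2 1.42.0, limma 3.58.1 voom, other scalings, filters, covariates and left-out libraries. The main edgeR fit of week 3 against week 1 was first tested on simulated counts, and the alternatives were not. The genes and lists were chosen with earlier results of these data known. Promoter windows come from RefSeq on GRCm38.p6, another build than the counts, so no position was shared between them.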

Additional observations from a re-analysis of the deposited data

Results flagged for a closer look

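Among 142 groups of 4 libraries, 1 library in each of 7 lay far from the other 3, by Dixon's criterion for 4 values. The criterion was applied to log2 CPM, while the values printed here are CPM. Chance alone flags about 1 in 20 groups. Sqle read 2.14 CPM in library 4 of week 1, against 3.76 to 4.16 in the other 3. Nsdhl read 8.49 CPM in library 1 of week 3, against 13.9 to 15 in the others. In library 3 of week 1, Gsta4 read 18.1 CPM against 26.2 to 28.3, and Asl read 134 CPM against 161 to 167. Orm3 read 6.42 CPM in library 4 of week 1, against 3.84 to 4.05. Aldh1a7 read 89.4 CPM in library 1 of week 1, against 107 to 108. Cpb1 read 0.169 CPM in library 3 of week 3, against 0 in the others.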

How the results depend on the processing

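No edgeR setting tried called a gene between week 3 and week 1, and limma voom called 0. At an adjusted p under 0.10 the main fit also gave 0. Fitted on the 8 libraries alone, edgeR's smallest adjusted p was 0.0993, and 0.0542 with a replicate block. DESeq2 called 1 gene, Cfd, higher at week 3, so also 1 early response gene, and it called 267, 198 and 217 genes at weeks 1, 2 and 3 against normal diet, where edgeR called 142, 105 and 101. Of the 198 early response genes as DESeq2 chose them, 102 were also chosen by edgeR. Between week 3 and week 1, edgeR called 0 of the 198. The 95% interval lay within 1.5-fold for 5274 genes. With 1 library of week 1 or week 3 left out at a time, the genes called against normal diet numbered 93 to 160 at week 1, lowest without library 2 of week 1, and 61 to 110 at week 3, lowest without library 2 of week 3. A covariate of non-hepatocyte markers gave 50 genes at week 2. Without both week 1 libraries with pancreatic transcripts, an alternative chosen after seeing the data, 67 were called at week 1. The cause of these shifts was not tested. Same-numbered libraries of weeks 1 and 3 had correlated deviations of 0.11, -0.0035, 0.018 and 0.16, and 2 of 4 matched their own number best. So few values cannot decide whether the numbers pair the libraries. With a replicate block, 0 genes were called between the weeks (smallest adjusted p 0.34 over all libraries and 0.0542 over the 8), and 59 were called at week 2 against normal diet. Over the 8 libraries, edgeR gave 739 genes at an unadjusted p under 0.05 without the block and 1125 with it. Of 1337 values of the 71 named genes under other settings, 19, in 12 genes, had another sign. For genes under 10 CPM, depth limits what a change of 2-fold can show.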
